A study of Mus musculus with 4 samples.

Results

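PU.1 binding was described at the 812 genomic regions that carried a called PU.1 peak in every genotype of the series. The regions were obtained by joining peaks of the 3 deposited lists that overlapped by at least 1 bp on chromosomes 1 to 19, and by keeping those that held a wild-type, a knock-in and a miR-155 knockout peak. They made up 812 of the 4676 autosomal regions (17.4%). The regions were thus chosen by the peak calls themselves, so presence in all lists is no finding, and the scores and positions below are descriptions without a test. They are called common regions here, and coordinates are on the mouse build mm9.

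The material was mouse splenic B cells, isolated by negative selection and stimulated in culture for 96 h with IL-4 at 10 ng/ml together with LPS at 5 ug/ml, then fixed in 2% formaldehyde for chromatin immunoprecipitation and sequencing (ChIP-seq). The groups were wild type, the PU.1[155-/155-] knock-in and miR-155[-/-], the miR-155 knockout, and every group received the same stimulation. Each genotype was represented by 1 immunoprecipitated library whose title calls it a mix, without saying what was combined, and neither strain nor age is stated. LPS, a bacterial lipopolysaccharide sensed through a Toll-like receptor, and IL-4, a T cell cytokine, together drive B cells to divide and to switch antibody class. The lists hold no expression values, so the cell type was taken from the labels. The remaining sample of the 4, input DNA, was not analysed here. No difference between genotypes below has a replicate check, and the read depth of the libraries is unknown.

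PU.1 is an ETS-family transcription factor that binds DNA around a GGAA core and is needed for the development of myeloid and lymphoid cells. In B cells it acts at enhancers and promoters, often with partner factors of the IRF family, and its level is kept low relative to macrophages. miR-155 is a microRNA of activated B cells that pairs with a site in the PU.1 messenger RNA and lowers PU.1 protein. The mature strand that does so is shown because the knockout removes it and the knock-in changes its target in the PU.1 gene. It is given 5′ to 3′ from RefSeq (build GRCm38.p6), with the seed, bases 2 to 8, in capitals.
mmu-miR-155-5p: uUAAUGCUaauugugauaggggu

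The share of a list that lay in common regions was highest for the shortest list, the wild type. Of the 1114 autosomal wild-type peaks, 812 lay in a common region (72.9%, exact 95% binomial interval 70.2 to 75.5). The same held for 813 of 2063 knock-in peaks (39.4%, 37.3 to 41.6) and for 812 of 4094 knockout peaks (19.8%, 18.6 to 21.1). These intervals cover counting error over peaks only. Nearly every common region held 1 peak of each list, so the order of the shares follows from the lengths of the lists by construction. With each list held to the same number of peaks, 1132, the shares were 48.5%, 48.5% and 48.2%, near-equal for the same reason. All but 1 of the 812 regions held exactly 1 peak of each list.

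Peaks with high scores lay in common regions more often than peaks with low scores in every list. The score is the authors' own value per peak and was used to rank peaks within a list. In the highest-scoring 10% of the wild-type list all 112 peaks lay in common regions (96.8 to 100), against 49 of 111 (44.1%, 34.7 to 53.9) in the lowest-scoring 10%. The knock-in shares were 192 of 207 (92.8%, 88.3 to 95.9) and 16 of 206 (7.77%, 4.50 to 12.3). In the knockout they were 342 of 410 (83.4%, 79.5 to 86.9) and 7 of 409 (1.71%, 0.691 to 3.49). Counted from the highest score downward, 169 wild-type, 62 knock-in and 69 knockout peaks preceded the leading peak outside a common region. That peak had a score of 125.2 (wild type), 207.6 (knock-in) and 380.3 (knockout).

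**Figure D1:**
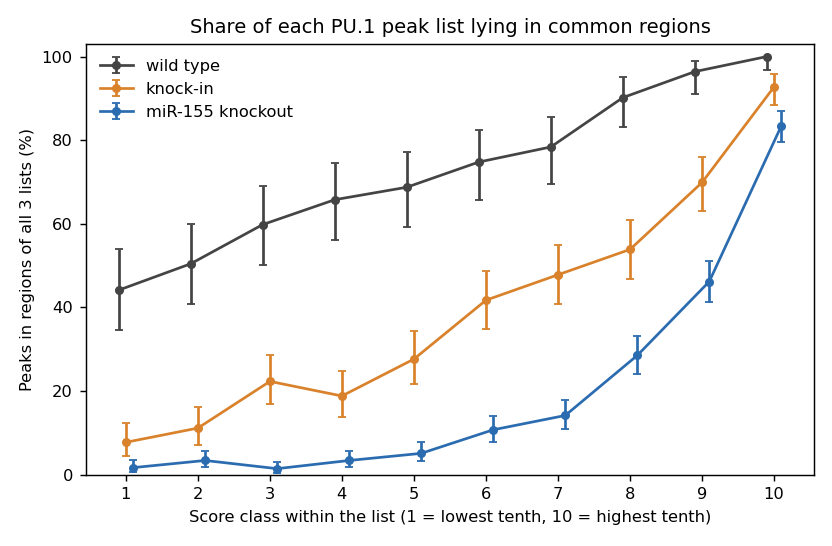
Share of autosomal PU.1 peaks that lie in the 812 common regions (vertical axis, percent), by score class within each list (horizontal axis, 10 classes of equal size, lowest scores at 1). Points are shares and bars are exact 95% binomial intervals over peaks. The wild-type share went from 44.1% to 100%, the knock-in share from 7.77% to 92.8% and the knockout share from 1.71% to 83.4%.

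The common regions did not consist of strong peaks alone. In the wild-type list their scores ran from 50.02 through a median of 86.4 to 926.5, and their percentile within the list had a median of 60.6 (interquartile range 34.0 to 81.6). In the knock-in list scores ran from 50.8 through 98.3 to 1069, with a median percentile of 74.2 (53.5 to 89.0). In the knockout list they ran from 50.8 through 186 to 1932, with a median percentile of 86.9 (74.9 to 94.7). Each range thus began close to the lowest score of its list and ended at the highest. Wild-type peaks at 319 common regions stood below the median of their list, compared with 180 knock-in and 62 knockout peaks. At 276 regions the wild-type peak was below its list's median and the knockout peak above its own, and at 19 regions the reverse was seen. A percentile depends on the number and the scores of the other peaks in its list, and the lists differed in both. The median score of the whole list was 76.6 (wild type), 72.9 (knock-in) and 88.8 (knockout). These percentiles therefore cannot be read as a change in binding, which was not tested. Above percentile 90 in every list were 66 common regions, and below percentile 50 in every list were 15.

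The 5 regions with the highest mean percentile were examined for the form of their peaks. At the leading one, chr2:127834131-127835338, the peak was 860 bp wide (wild type), 1081 bp (knock-in) and 1208 bp (knockout). Its wild-type peak lay inside the knock-in peak, and the knock-in peak inside that of the knockout, so 860 bp were covered by all lists. The region at chr9:96299796-96300346 had widths of 522, 510 and 551 bp, in the order of genotypes just given, and 485 bp in common. At chr2:35351356-35351911 the widths were 319, 341 and 556 bp. At chr18:66597358-66597874 they were 514, 339 and 513 bp. The knockout peak was the widest at 3 of these 4 regions. The last of the 5, at chr9:48366781-48367193, had all 3 peak centres within 6 bp of each other.

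The weakest common regions stood low in every list. The lowest mean percentile belonged to chr9:116125791-116126125, with scores of 52.8 (wild type), 59.3 (knock-in) and 53.6 (knockout). A region at chr13:38119815-38120297 had scores of 54.7, 50.8 and 69.1, in the same order. One at chr16:84967329-84967643 had 55.1, 54.4 and 62.6. The last of the 5 lay at chr4:102246717-102247097 and at chr1:44182556-44183025, with wild-type percentiles of 25.04 and 34.2, knock-in percentiles of 13.4 and 4.25, and knockout percentiles of 16.8 and 17.1. The weak regions were positioned about as closely as the rest: at these 5 the outermost peak centres were 21.5 to 94 bp apart.

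Because the lists differ in length, score agreement was described by ranking the 812 regions anew within each list, as a percentile among the common regions. Spearman's rho was 0.49 between wild type and knock-in, 0.55 between wild type and knockout and 0.55 between knock-in and knockout (n = 812 regions each; Pearson's r of the list percentiles was 0.42, 0.46 and 0.43). The points of a pair share a library on each axis, so its depth and background enter all of them, and no p-value is given. Leaving out the leading region on chromosome 2 left rho at 0.48, 0.55 and 0.55. To 2 decimals the pair of mutants had the same rho as wild type and knockout.

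**Figure D2:**
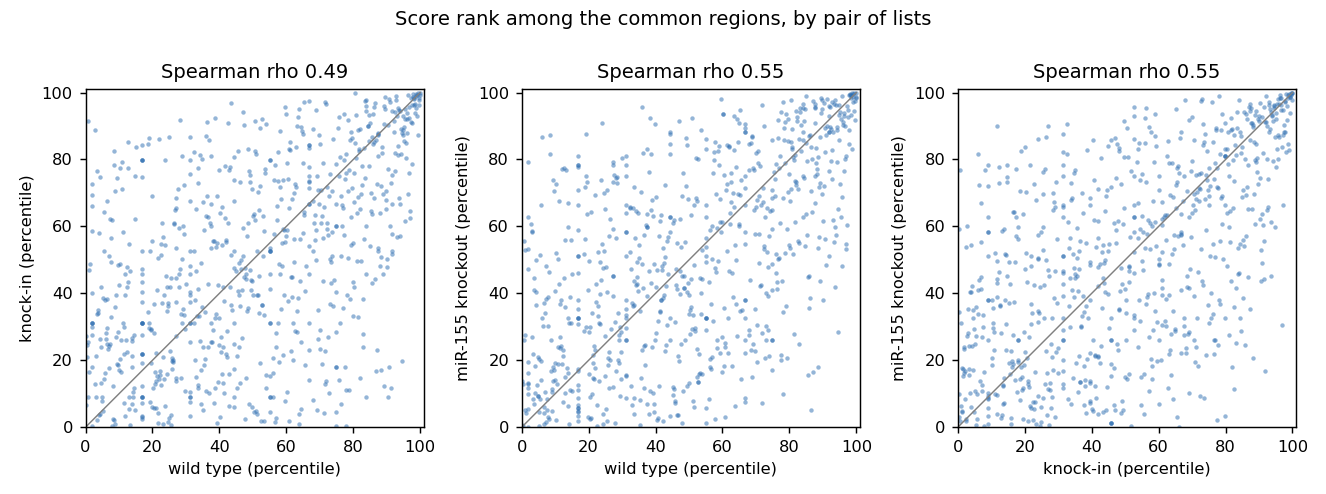
Score rank of each of the 812 common regions (percentile among the common regions) in 2 lists per panel, 1 point per region, with the line of equal rank. Spearman's rho is 0.49, 0.55 and 0.55 from left to right, and points gather near the line at the upper right corner and spread widely below it.

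Agreement was closer among regions that ranked high in the remaining list. When the regions were divided by their rank in the list outside the pair, rho between wild type and knock-in was 0.49 for the 406 regions of higher knockout rank and 0.22 for the 406 of lower knockout rank. Between wild type and knockout it was 0.56 for higher and 0.34 for lower knock-in rank. Between knock-in and knockout it was 0.61 for higher and 0.31 for lower wild-type rank. Values for regions called in only 2 lists were lower than over all common regions. For the 718 shared by the mutants alone rho was 0.25, and for the 232 shared by wild type and knockout alone it was 0.28. For the 20 shared by wild type and knock-in alone it was 0.10. The difference between these sets was not tested.

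Many of the strongest regions of a list were also among the strongest of another. Of the 200 regions above percentile 75 among the common regions in the wild type, 112 were also above it in the knock-in, which is 56.0% of the wild-type and 55.2% of the knock-in set. Such regions numbered 121 for wild type and knockout (60.5% and 60.2% of the 2 sets) and 120 for knock-in and knockout (59.1% and 59.7%). In every list at once, 87 regions stood above percentile 75 and 47 stood at or below percentile 25. Another 61 stood above percentile 75 in at least 1 list and at or below percentile 25 in another. The range between a region's highest and lowest rank had a median of 30.7 points (interquartile range 16.8 to 44.6). It was under 10 points at 114 regions and over 50 points at 148.

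To count regions whose position differed between lists, a gap of over 25 percentile points was used, with ranks taken over all autosomal regions called in both lists of the pair. Between wild type and knock-in, 287 of the 812 common regions had such a gap (35.3%), beside 35.5% of all 832 regions called in both. Between wild type and knockout the count was 275 (33.9%), beside 33.4% of 1044. Between knock-in and knockout it was 276 (34.0%), beside 35.6% of 1530. Each background includes the 812 common regions, so a share near it says nothing particular about them. Among the regions called in only the 2 lists of a pair, the gap was found at 8 of 20 (40%), 74 of 232 (31.9%) and 269 of 718 (37.5%), in the same order. The gaps went in both directions. In the knock-in and knockout pair, 156 common regions ranked higher in the knockout (19.2%, beside 17.8%) and 120 in the knock-in (14.8%, beside 17.8%). For wild type and knock-in, 146 ranked higher in the knock-in (18.0%, beside 18.3%) and 141 in the wild type (17.4%, beside 17.2%). For wild type and knockout, 136 ranked higher in the knockout (16.7%, beside 15.7%) and 139 in the wild type (17.1%, beside 17.7%).

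Individual regions departed far from the common order, and the 3 farthest in each direction are given for each genotype by their ranks among the common regions. The wild-type rank lay farthest above the others at chr12:35408121-35408444, at percentile 94.5 (wild type), 19.8 (knock-in) and 28.4 (knockout). Ranks of 78.0, 11.2 and 9.9, in the same order, were found at chr12:103689553-103690101. At chr6:17638718-17639175 they were 87.1, 23.0 and 16.5. In these regions the wild-type score was 200.6, 121.9 and 148.6, well above the threshold of its list. The opposite form was a wild-type peak close to the threshold at a region that ranked high in the mutants. At chr18:36101837-36102250 the ranks were 8.4 (wild type), 82.6 (knock-in) and 87.4 (knockout), with a wild-type score of 55.2. chr1:35917718-35918071 had ranks of 0.68, 91.5 and 55.7, and chr5:116074142-116074394 had 2.8, 88.7 and 60.8. Their wild-type scores were 50.5 and 50.8, so these regions were barely called in the wild type.

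The knock-in rank stood farthest above the others at chr16:32059843-32060332, at 77.5 in the knock-in against 10.4 in the wild type and 2.2 in the knockout. At chr13:97434370-97434828 the knock-in stood at 79.7, the wild type at 16.8 and the knockout at 3.4. At chr10:22026225-22026584 the ranks were 91.7, 28.2 and 16.9 in that order. At the first-named of these regions the knockout peak was centred 77 bp from the knock-in peak and 167.5 bp from the wild-type peak, so the lists also differed in where the peak lay. The knock-in rank stood farthest below at chr10:120811740-120812205, where it was 11.7 against 91.1 in the wild type and 89.9 in the knockout. It was 9.1 against 90.3 and 72.2 at chr11:99048096-99048604, and 12.3 against 89.3 and 73.0 at chr7:30276832-30277363. These regions were strong in the wild type and the knockout and lay in the lower part of the knock-in list, at percentiles 34.6, 26.7 and 35.4.

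The knockout rank was farthest above the others at chr1:16627579-16628042, at 86.7 against 6.2 in the wild type and 26.3 in the knock-in. It was 77.0 against 13.3 and 0.62 at chr5:67693178-67693559, and 78.3 against 16.8 and 9.1 at chr5:144942129-144942525. It was farthest below at chr19:47207510-47207921, at 17.9 against 88.5 in the wild type and 81.9 in the knock-in. At chr8:26162400-26162737 it was 20.7 against 79.3 and 88.2, and at chr7:87354627-87355118 it was 8.8 against 66.8 and 73.6. Even these low-ranked knockout peaks stood above the median of the knockout list, at percentiles 67.7, 70.6 and 53.6. With 1 library per genotype, differences between libraries and between genotypes cannot be told apart at any of these regions.

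Peaks were joined because they overlapped, so the rule itself limited how far apart the centres of a region could lie. The distances below describe positions within that limit. The centres of the wild-type and knock-in peaks were a median of 34.2 bp apart (interquartile range 15.5 to 62.6), those of wild type and knockout 32 bp (14.5 to 56.5) and those of knock-in and knockout 39 bp (18.5 to 67). They lay within 100 bp of each other at 760, 768 and 753 of the 812 regions. The median of the signed distance was 0 bp for knock-in minus wild type, 4.5 bp for knockout minus wild type and 2.75 bp for knockout minus knock-in, counted toward higher coordinates. No list was displaced as a whole by more than a few bp. The centres were a median of 36 bp apart at the 718 regions called in both mutants alone and 37.5 bp at the 232 called in wild type and knockout alone. Those regions were joined by the same rule, so they are no independent reference.

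**Figure D3:**
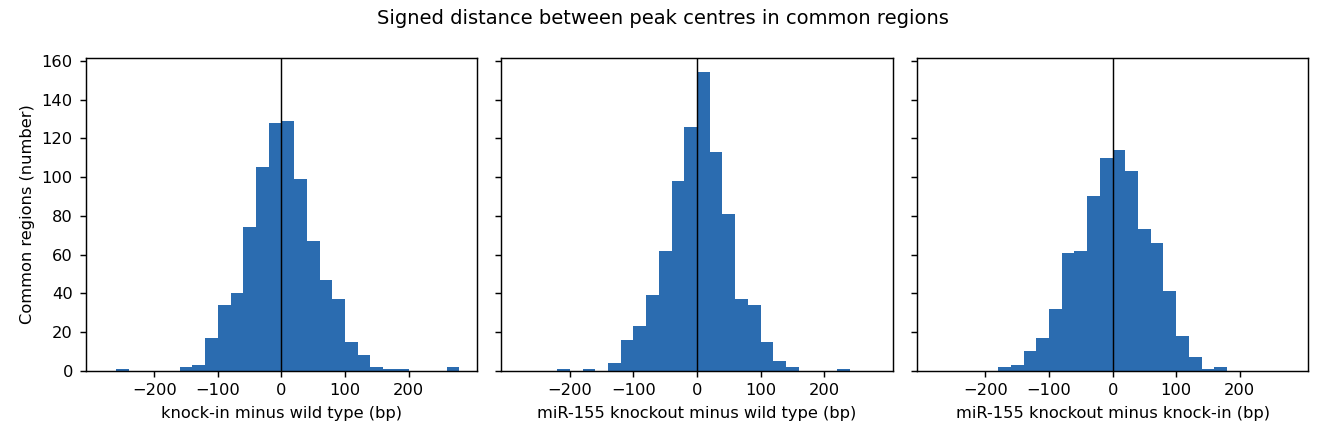
Signed distance between peak centres in the 812 common regions (horizontal axis, bp, bins of 20 bp) for each pair of lists, with the number of regions on the vertical axis. The distributions are centred near 0, with medians of 0, 4.5 and 2.75 bp from left to right.

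The distance between centres hardly varied with rank. Over all 3 lists the outermost centres of a region were a median of 58.8 bp apart (36.5 to 87.5), and at 689 regions (84.9%) they were within 100 bp. The distance was a median of 62 bp in the 203 regions of highest mean rank and 59.5 bp in the 203 of lowest mean rank, and Spearman's rho between mean rank and distance was 0.04 over 812 regions. The 3 regions with the closest centres were at chr14:94941232-94941497, with all centres within 1 bp, at chr2:75630512-75630814, within 4.5 bp, and at chr5:77718657-77718956, within 5.5 bp. Of these, the region on chromosome 14 had percentiles of 69.3 (wild type), 24.1 (knock-in) and 65.3 (knockout), and that on chromosome 5 had 88.7, 95.9 and 94.6. Closely matched centres thus occurred at a weak knock-in peak as well as at a region that was strong in all lists.

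The stretch covered by all 3 lists had a median length of 246 bp (213 to 281), or 58.7% of the joined span. The joined span had a median of 426 bp (372 to 481) and summed to 351 kb. All 3 centres lay within the shared stretch at 794 regions. In regions of higher rank the shared stretch was longer, with a median of 273 bp in the 203 regions of highest mean rank against 224 bp in the 203 of lowest (rho 0.35 over 812 regions, a description). The joined span was longer there too, with medians of 466 and 397 bp (rho 0.28). As a share of the span the stretch had medians of 59.6% and 56.4%.

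**Figure D4:**
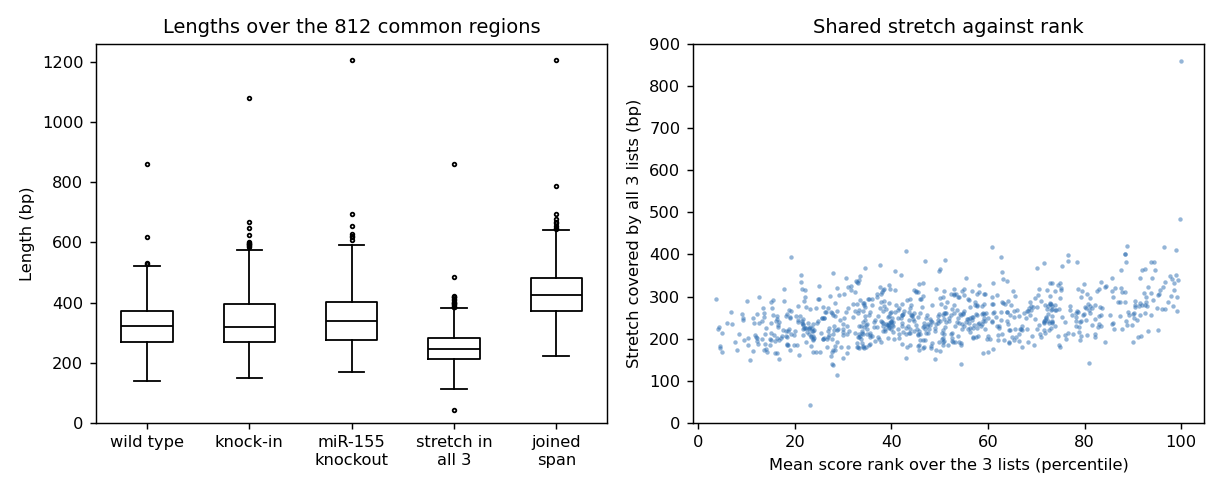
Left, lengths (bp) over the 812 common regions of the peak in each list, the stretch covered by all 3 lists and the joined span; boxes show quartiles and median, whiskers reach 1.5 box lengths and dots lie beyond. Right, the shared stretch (bp) against mean rank; its median is 273 bp in the 203 highest-ranked and 224 bp in the 203 lowest-ranked regions.

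Peak widths were alike between lists but were not shared region by region. At the common regions the median width was 321.5 bp (wild type), 319 bp (knock-in) and 337.5 bp (knockout). The width of a region in 1 list said little of its width in another, with Spearman's rho of 0.12 for wild type and knock-in, 0.15 for wild type and knockout and 0.14 for knock-in and knockout. The widest peak was that of the knockout at 324 regions, of the knock-in at 260 and of the wild type at 234, with 6 ties counted in each list concerned. Peak starts and ends differed by medians of 44.5 to 48 bp between any 2 lists.

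Within each list, peaks in common regions were set beside the other autosomal peaks. The wild-type medians were 321.5 and 294 bp, the knock-in medians 319 and 312 bp and the knockout medians 337.5 and 289 bp. Width rose weakly with score in the common regions (rho 0.27, 0.15 and 0.22 for wild type, knock-in and knockout). In the highest-scoring 25% of each list the medians in and outside common regions were 334 and 285 bp for the knock-in and 345 and 322 bp for the knockout. In the wild type they were 348.5 and 346 bp, but only 9 peaks lay outside there. In the lowest-scoring 25% they were 306 and 272.5 bp in the wild type, 320 and 328 bp in the knock-in and 303 and 289 bp in the knockout. The wider peaks in common regions were thus not seen in every score class of the knock-in, and the differences were not tested because the same lists chose the regions.

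The extremes of width and overlap show how far peaks of a joined region can differ. After the leading region of chromosome 2, the widest joined span was at chr6:124679817-124680602. There a wild-type peak of 619 bp met a knock-in peak of 420 bp and a knockout peak of 178 bp, and 167 bp were common to all. The next, at chr19:4231383-4232077, had a knockout peak of 695 bp at percentile 99.2 of its list. The narrowest regions were at chr8:125394324-125394545, at chr7:20252869-20253112 and at chr3:103010409-103010661, with spans of 222, 244 and 253 bp. The last of these ranked high in both mutants, at percentiles 95.6 and 95.9, and at 62.3 in the wild type, so a narrow span was not tied to a weak peak.

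The shortest shared stretch was 43 bp, at chr13:103479544-103480221, the only region with 2 peaks of a list. Its wild-type peak ran from 103479544 to 103479962 and its knockout peak from 103479603 to 103480221. The knock-in list had a peak from 103479571 to 103479902 at percentile 6.64 and another from 103479920 to 103480126 at percentile 49.5. The knockout peak thus spanned the position that the knock-in list divided into 2 peaks, and the stretch of 43 bp was counted with the stronger of them. Its centres were 270 bp apart, the largest distance of all. The next shortest stretches were 114 bp at chr1:109480395-109481058, where the centres were 243.5 bp apart, and 138 bp at chr11:116975843-116976255. The region of chromosome 6 with the wide span had centres 266.5 bp apart.

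**Figure D5:**
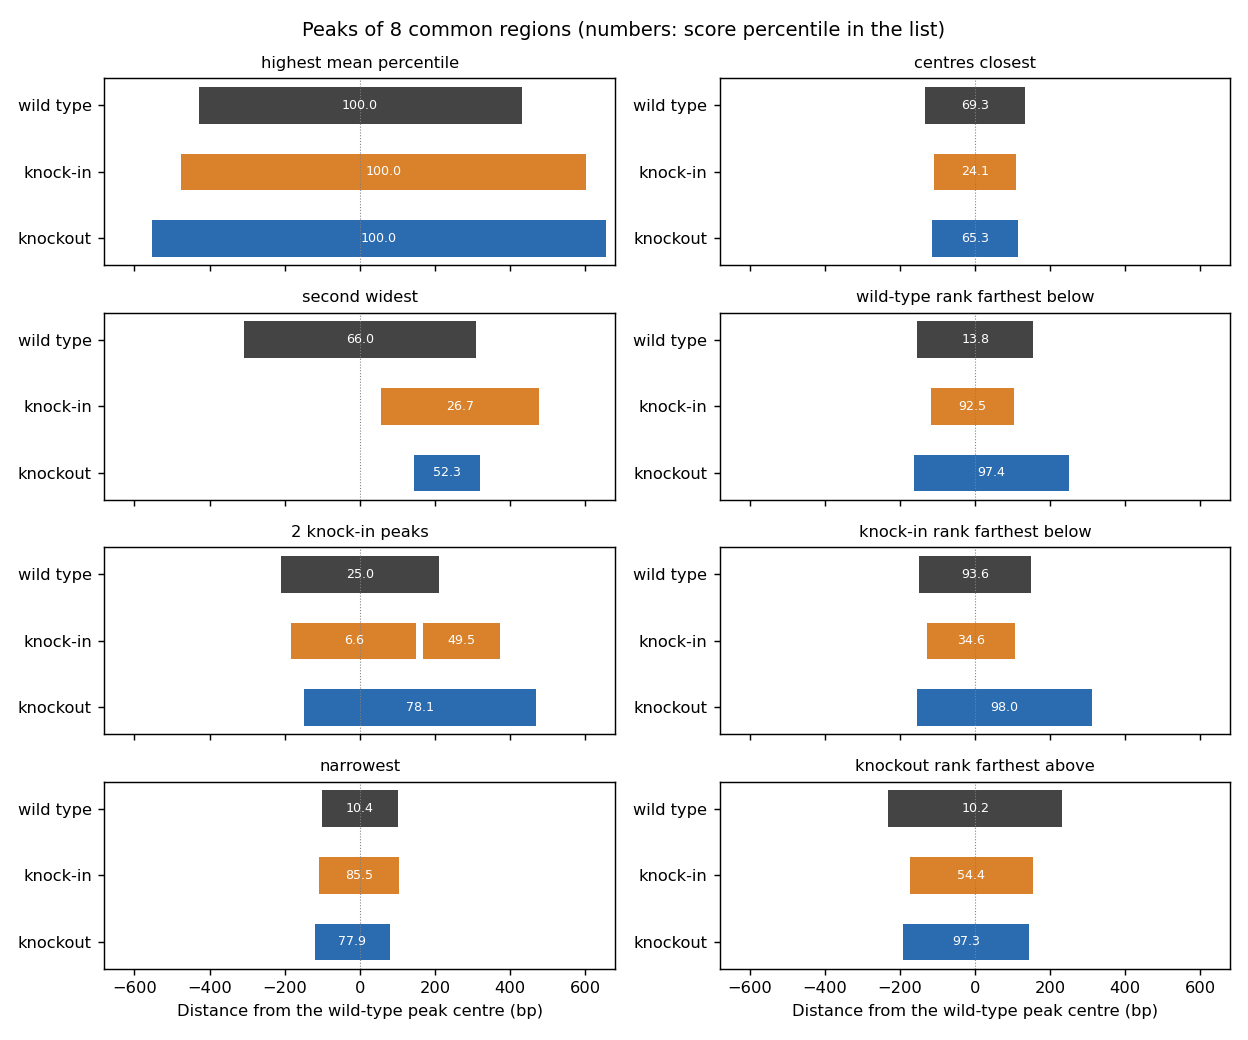
Peaks of 8 common regions drawn to scale around the centre of the wild-type peak (horizontal axis, bp), 1 row per genotype, with the score percentile within the list printed on each bar. The region with 2 knock-in peaks at percentiles 6.64 and 49.5 and the region of 222 bp mark the extremes of form, and the panels of departing rank show peaks at the same place with percentiles such as 13.8, 92.5 and 97.4.

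Few regions lay close to the limit of the rule. The smallest overlap between any 2 peaks counted as shared was 43 bp between wild type and knock-in, 138 bp between wild type and knockout and 140 bp between knock-in and knockout. Outside the rule, 970 regions held peaks of exactly 2 lists, and at only 2 of them did a peak of the missing list lie within 500 bp. The nearest was at chr9:65389434-65389806, called in both mutants, with a wild-type peak 207 bp away. At chr18:69821828-69822244 the wild-type peak was 399 bp away, and at chr1:193638113-193638476 it was 599 bp away. The wild-type peaks beside the chromosome 9 region and the chromosome 1 region each belonged to a neighbouring common region. Those regions therefore did not narrowly miss the rule. Of the regions without a knock-in peak, the nearest to one were chr5:98445870-98446171, at 1048 bp, and chr5:102926255-102926630, at 1126 bp. With a reciprocal overlap of 50% in place of 1 bp, 792 common regions were found.

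Common regions were found on each of the 19 autosomes, from 20 on chromosome 18 to 73 on chromosome 2. As a share of all regions on a chromosome they ranged from 12.3% on chromosome 6 (38 of 310, exact 95% interval 8.82 to 16.4) to 22.4% on chromosome 19 (36 of 161, 16.2 to 29.6). For 18 of the 19 chromosomes the interval held the overall 17.4%, and chromosome 6 was the exception. The intervals were not adjusted for reading 19 of them at once, so a single exception does not show a difference between chromosomes, which was not tested. As a share of the wild-type peaks alone they ranged from 61.0% on chromosome 8 (25 of 41, 44.5 to 75.8) to 87.0% on chromosome 18 (20 of 23, 66.4 to 97.2). There all 19 intervals held the overall 72.9%, with 70.4% on chromosome 6 (56.4 to 82.0). Chromosome X held a further 10 regions called in all genotypes and chromosome Y held 0, which the rule leaves out.

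The common regions were scattered, with a median of 627 kb to the nearest other one (interquartile range 158 to 1574 kb). At 30 regions (3.69%) another lay within 10 kb, forming 15 pairs and no larger group. The closest pair was at chr11:100869375-100870353, 161 bp apart, and every list separated the 2 peaks. The next closest were at chr5:121900002-121901680, 922 bp apart, at chr4:59816220-59818007, at chr16:52417161-52419393 and at chr1:133597015-133599474. In the pair on chromosome 1 the left region stood at percentiles 93.1 (wild type), 96.0 (knock-in) and 99.4 (knockout), and the right one at 70.0, 63.9 and 67.8. In the closest pair, on chromosome 11, the left region stood higher in the wild type (86.5 against 72.0) and the knock-in (86.0 against 56.3) and lower in the knockout (76.3 against 93.5). At 8 of the 15 pairs the same neighbour had the higher percentile in every list.

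Regions of the other kinds were also counted by their distance to a common region. Within 10 kb of one lay 70 of the 2332 regions called in the knockout alone (3.0%), 26 of the 718 called in both mutants alone (3.62%) and 13 of the 232 called in wild type and knockout alone (5.60%). The count was 8 of 512 for the knock-in alone (1.56%) and 4 of 50 for the wild type alone (8.0%). It was 0 of the 20 called in wild type and knock-in alone. By the approximate rule of 3 counts over 20, this allows a share of up to about 15%. Seen from the common regions, 111 of 812 (13.7%) had a region of any other kind within 10 kb. A region called in the knockout alone, the most numerous kind with 2332 of all 4676 autosomal regions, lay that close to 68. The count was 27 for regions of both mutants alone and 13 for wild type and knockout alone. It was 8 for the knock-in alone and 4 for the wild type alone. A common region can be counted under more than 1 kind. These shares were not tested.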

How the data were processed

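PU.1 peak lists of 3 immunoprecipitated libraries were analysed, 1 per genotype. The authors' tools were MACS, Bowtie and Trim Galore and their build mm9, per the submitters' processing notes, which name no version, and neither settings nor a calling control are stated. The deposited score of each peak has no stated definition and a lowest value of about 50, and was used for ranks within a list. Coordinates are 1-based, so deposited BED starts were raised by 1. No mm9 sequence or annotation was used here, so genes, exons and motifs at the regions are not stated and the planned motif and gene counts were not run.

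Regions were connected components of overlapping peaks, tested on simulated lists. Where a list had several peaks in a region, the highest-scoring one was used, and tied scores took their mean rank. A percentile is the rank divided by the number of peaks or regions ranked. Shares carry exact (Clopper-Pearson) 95% intervals. The members, the naming rules (highest and lowest mean percentile, farthest ranks, extremes of width, overlap, centre distance and spacing) and the alternatives were chosen with earlier results of these data known. Depth is unknown. Scripts ran in Python 3.11.15 with scipy 1.17.1, pandas 2.3.3, numpy 2.4.6 and, for plots, matplotlib 3.10.9.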

Additional observations from a re-analysis of the deposited data

How the results depend on the processing

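A reciprocal overlap of 50%, joining peaks up to 500 bp apart and including chromosomes X and Y gave 792, 811 and 822 regions and moved no median, share or rho outside its 95% interval. For medians this interval came from order statistics and for rho from a Fisher transformation, over regions as if independent. Keeping the higher-scoring 50% of each list left 411 regions with a median span of 443 bp and widths of 334 bp in the wild type and 351 bp in the knockout. Lists cut to an equal 1132 peaks left 540 regions with a span of 433.5 bp and a knockout width of 349 bp. Their shares were 48.5% of wild-type, 48.5% of knock-in and 48.2% of knockout peaks, and rho between knock-in and knockout was 0.48. Both settings enter fewer peaks by construction. Other rank gaps are given with their share of the common regions, beside the share of all regions called in both lists. A gap of over 15 points was found at 443 common regions for wild type and knock-in (54.6%, beside 54.8%). It was found at 424 for wild type and knockout (52.2%, beside 52.2%) and at 414 for the mutants (51.0%, beside 55.4%). One of over 40 points was found, in the same order, at 138 (17.0%, beside 16.9%), 123 (15.1%, beside 14.7%) and 124 (15.3%, beside 16.0%). In all, 63 of 79 alternative values stayed within the interval or within 1.5 times the count. No paired analysis was possible because there is a single library per genotype, which also means that leaving out replicates could not be tried. The unknown depth limits what a missing peak shows.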

Other observations

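The same score values recurred in all 3 lists, a pattern noticed after the values were seen. Among the 30 most frequent scores of each list, 10 values were common to all: 50.8, 58.65, 59.49, 69.53, 75.33, 79.98, 90.8, 101.97, 113.45 and 149.61. They were carried by 162 wild-type peaks (14.3%), 225 knock-in peaks (10.7%) and 371 knockout peaks (8.93%). The most frequent value in each list was 59.49, at 36 peaks of the wild type, 73 of the knock-in and 69 of the knockout. In the common regions these 10 values were held by 125 peaks of the wild type, 94 of the knock-in and 31 of the knockout. Such ties give regions the same rank within a list, and they appear as vertical and horizontal rows of points in the plot of ranks by pair of lists. At 12 common regions the wild-type and knock-in scores were identical, and at 2 each for the other pairs.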
